A study of Mus musculus with 8 samples.

Results

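The genes of secreted vessel growth factors were followed in cultured dermal fibroblasts from mice in which *Tgfb1* was deleted in fibroblasts. Members were chosen by symbol: the VEGF family ligands *Vegfa*, *Vegfb*, *Vegfc* and *Pgf*, the angiopoietins *Angpt1*, *Angpt2* and *Angpt4*, and *Hgf*. All 8 were present among the 15111 genes in the table. RNA came from primary fibroblasts of the back skin of tamoxifen-fed mice aged 10 weeks, kept for 72 h on fibronectin in medium with serum replacement. The TGFβ1FKO genotype is Tgfb1fl/fl:Col1a2-CreERT, in which tamoxifen activates Cre in cells that use the *Col1a2* promoter, and controls are Tgfb1fl/fl without Cre, so both groups carry the floxed alleles and received tamoxifen. Each group has 4 poly(A)-selected, non-directional libraries. Their labels do not say that each came from a separate mouse, and p-values then measure only the spread between these libraries, which may be technical. The comparison asks whether fibroblasts after deletion of *Tgfb1* express a different level of the factors that act on vessels.

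VEGF ligands act on receptor tyrosine kinases of the endothelium. VEGF-A drives sprouting through the receptor encoded by *Kdr*, VEGF-B and placental growth factor bind the receptor encoded by *Flt1*, and VEGF-C acts on lymphatic vessels through the product of *Flt4*. Angiopoietins bind the endothelial receptor Tie2, encoded by *Tek*. Angiopoietin-1 is made by perivascular and mesenchymal cells and stabilises vessels, angiopoietin-2 is stored and released by endothelial cells and can oppose it, and angiopoietin-4 is a further ligand of this receptor. Hepatocyte growth factor is a product of mesenchymal cells that signals through Met on epithelial and endothelial cells. TGFβ signals through Smad proteins, and *Vegfa* is a textbook target of the hypoxia-inducible factors.

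Values are normalised counts, in which the reads of a library are scaled by its size factor. Depth on the listed genes was 16988998 to 21806579 reads in controls and 17445002 to 23071528 in TGFβ1FKO. No pair of libraries of 1 group differed so little that they could be the same library (lowest chi-square divided by its degrees of freedom 5.14). *Tgfb1*, the deleted gene (chr7:25687002-25705077, plus strand, GRCm38), had 1401, 1298, 1483 and 1314 normalised counts in controls and 326.4, 259.9, 228.4 and 294.7 in TGFβ1FKO. The groups did not overlap, and each library matched its label. *Tgfb1* fell by 2.31 on the log2 scale (SE 0.0999, limma adjusted p = 1.53e-07), to 0.201 of the control level. The summed markers of fibroblasts (12 of 12 listed genes present) held 1605000 to 1957000 normalised counts in controls and 1671000 to 1797000 in TGFβ1FKO. Of these markers 0 were called by limma, edgeR or DESeq2, and 1 was lower at an unadjusted limma p under 0.05, against 3.87% of all genes.

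The sequences before the transcription start are shown for *Vegfb*, *Vegfa* and *Angpt4*, the 3 members with the highest level per exon length, because these are the factors that make up most of the vessel growth factor RNA below. They are the 250 bases upstream of the most upstream start in RefSeq, on GRCm38.p6. RefSeq promoters were matched for 6 of the 8 members, and *Angpt1* and *Angpt2* were not matched. Capitals mark 4 motifs searched on both strands: the core of the hypoxia response element (ACGTG), the core of the Smad binding element (CAGAC), the TATA box (TATAAA) and the GC box bound by Sp1 (GGGCGG). None of the 4 motifs contains another, but neighbouring matches adjoin or share a letter in *Vegfa* and *Vegfb*.
*Vegfb*, chr19:6987652-6987901, minus strand: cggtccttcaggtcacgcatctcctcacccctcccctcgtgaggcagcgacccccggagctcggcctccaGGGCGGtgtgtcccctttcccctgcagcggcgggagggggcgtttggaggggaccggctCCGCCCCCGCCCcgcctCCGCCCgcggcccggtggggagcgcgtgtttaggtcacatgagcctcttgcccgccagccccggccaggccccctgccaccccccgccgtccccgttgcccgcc
*Vegfa*, chr17:46032378-46032627, minus strand: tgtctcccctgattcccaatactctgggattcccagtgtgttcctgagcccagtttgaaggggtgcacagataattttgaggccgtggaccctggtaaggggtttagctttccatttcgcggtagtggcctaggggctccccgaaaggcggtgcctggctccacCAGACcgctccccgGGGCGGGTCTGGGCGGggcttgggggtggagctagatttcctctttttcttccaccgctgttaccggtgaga
*Angpt4*, chr2:151910957-151911206, plus strand: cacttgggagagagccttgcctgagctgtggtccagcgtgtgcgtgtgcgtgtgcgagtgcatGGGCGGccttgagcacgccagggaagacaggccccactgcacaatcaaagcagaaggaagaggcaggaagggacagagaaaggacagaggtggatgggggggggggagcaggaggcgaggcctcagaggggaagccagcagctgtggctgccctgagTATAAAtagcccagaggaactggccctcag

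These windows differ in base composition and in the motifs they hold. The *Vegfb* window has a GC content of 76.4% with 4 GC boxes and none of the other motifs. The *Vegfa* window has a GC content of 59.2%, 2 GC boxes and 2 Smad element cores, which 42.2% of all 32851 promoter windows of this length hold at least once. The *Angpt4* window has a GC content of 62.4%, 1 GC box and 1 TATA box that begins 30 bases before the start. The median GC content of all windows was 52.4%, and 32.7% of them hold a GC box, 12.4% a TATA box and 16.6% a hypoxia element core. None of these 3 windows holds ACGTG, which says only that these letters are not within the 250 bases. The window of a second RefSeq start of *Vegfa* (chr17:46025164-46025413, sequence not shown) holds 1 match to it. A match is a run of letters and not a measured binding site.

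None of the 8 vessel growth factor genes was called between TGFβ1FKO and control fibroblasts. A gene was called at an adjusted limma p under 0.05 with an absolute log2 fold change over 0.6. Of all genes, 13 were called (0.0860%), 12 of them lower and 1 higher in TGFβ1FKO, and 0 members were among them, while edgeR and DESeq2 also called 0 members. At an unadjusted limma p under 0.05, 2 members were lower (*Angpt1* and *Pgf*), against 3.87% of all genes, and 0 were higher, against 3.59% of all genes. edgeR, and DESeq2 tested against no change, also placed 2 members lower at this limit. The fitted log2 fold change was below 0 for 7 of the 8 members, against 49.1% of all genes, with a median of −0.14 over the members and 0.0031 over all genes. The 2 groups overlapped in every member. They did not overlap in 3.79% of all genes, and 8 members are too few to differ from that share. In bulk RNA, fewer cells of a type and less RNA per cell cannot be told apart.

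**Figure D1:**
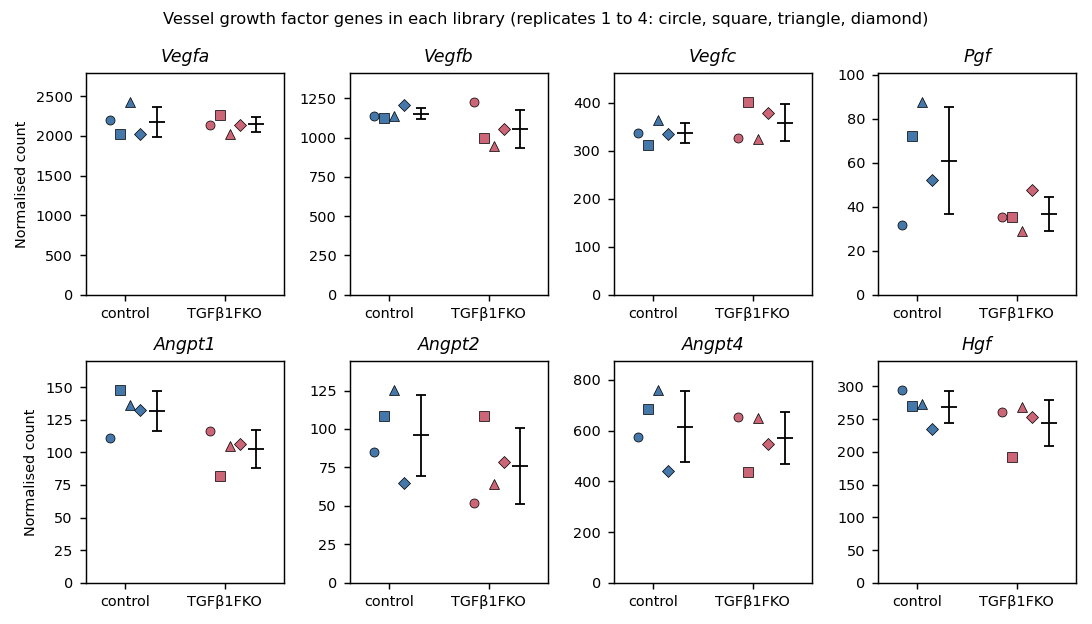
Normalised counts (y axis, linear and starting at 0, a separate scale for each gene) of the 8 vessel growth factor genes in 4 control (blue) and 4 TGFβ1FKO (red) libraries. Symbols mark the replicate number, and the bars to the right of the points give mean ± SD. The points of the 2 groups overlap in all 8 panels, and the fewest overlapping points are seen for *Angpt1*, where TGFβ1FKO was lower in 15 of 16 pairs of libraries.

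*Vegfa* (chr17:46016993-46032369, minus strand), which encodes the principal endothelial mitogen, differed least of all members. It had 2205, 2027, 2425 and 2028 normalised counts in controls and 2142, 2268, 2024 and 2141 in TGFβ1FKO. The TGFβ1FKO libraries all lay within or next to the control range, with control 3 the highest and TGFβ1FKO 3 the lowest by a small margin. The means were 2171 ± 189 and 2144 ± 99.5 (SD, n = 4 each), a fold of 0.989 with a 95% confidence interval of 0.897 to 1.09 (log2 fold change −0.016, limma adjusted p = 0.972). Between 1908 and 2563 reads per library stand behind these values.

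*Vegfb* (chr19:6982473-6987651, minus strand), whose product binds the *Flt1* receptor, had 1137, 1126, 1140 and 1206 normalised counts in controls and 1225, 1000, 946.6 and 1056 in TGFβ1FKO. TGFβ1FKO 1 was the highest of all libraries, and the other TGFβ1FKO libraries lay below every control. The fitted fold was 0.913 (interval 0.816 to 1.02, log2 fold change −0.13, SE 0.0751, limma adjusted p = 0.721). Control libraries varied by a coefficient of variation of 3.14%, close to the 2.94% that read counting alone gives, and TGFβ1FKO libraries by 11.4% against 3.06%. Without TGFβ1FKO 1 the log2 fold change was −0.20, with an adjusted p of 0.333 from limma, and without TGFβ1FKO 3 it was −0.080.

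*Vegfc* (chr8:54077606-54187096, plus strand), the lymphatic ligand, was the only member whose fitted value lay above the controls. It had 336.4, 313.4, 364.8 and 335.8 normalised counts in controls and 327.4, 401.8, 325.5 and 380.0 in TGFβ1FKO. A pair of TGFβ1FKO libraries, 2 and 4, exceeded every control, whereas the other two lay within the control range. The fold was 1.06 (interval 0.923 to 1.22, log2 fold change 0.083, limma adjusted p = 0.869). The log2 fold change was 0.027 without TGFβ1FKO 2 and 0.13 without TGFβ1FKO 3.

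*Pgf* (chr12:85166635-85177790, minus strand), which encodes placental growth factor, had the largest fitted difference of the members and also the fewest reads, 34 to 79 per library. Its normalised counts were 31.83, 72.25, 87.6 and 52.34 in controls and 35.48, 35.21, 29.06 and 47.64 in TGFβ1FKO. Controls 2, 3 and 4 lay above every TGFβ1FKO library, while control 1 lay below all but TGFβ1FKO 3. The means were 61.0 ± 24.2 and 36.9 ± 7.78 (SD, n = 4 each), a fold of 0.642 (interval 0.418 to 0.985, log2 fold change −0.64, SE 0.285). The unadjusted limma p was 0.0436 and the adjusted p was 0.658, and a two-sided exact permutation test gave p = 0.171, where 4 libraries against 4 allow no p below 0.0286. Without control 1 the log2 fold change was −0.91 (limma adjusted p = 0.317), and without control 3 it was −0.44. The control libraries varied by 39.7% against 13.0% from read counting alone, while the TGFβ1FKO libraries varied by 21.1% against 16.5%.

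*Angpt1* (chr15:42424723-42676977, minus strand), the stabilising ligand of Tie2, had the smallest unadjusted p of the members. It had 111.0, 147.7, 136.4 and 132.3 normalised counts in controls and 116.6, 81.81, 104.6 and 106.4 in TGFβ1FKO. The groups overlapped through control 1 and TGFβ1FKO 1 alone, and TGFβ1FKO was lower in 15 of 16 pairs of libraries. The means were 131.8 ± 15.4 and 102.3 ± 14.7 (SD, n = 4 each), a fold of 0.776 (interval 0.625 to 0.962, log2 fold change −0.37, SE 0.143). The unadjusted limma p was 0.0244, the adjusted p over all genes was 0.632, and the exact permutation p was 0.0571. The gene overlaps an antisense gene model, *Gm17473*, that is not among the listed genes. Where exons of both coincide, their reads cannot be told apart without strand. Only whole gene spans were compared, so whether exons coincide was not tested.

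*Angpt2* (chr8:18690263-18741562, minus strand), the vessel-destabilising ligand, varied most between libraries among the angiopoietins. It had 85.17, 108.4, 125.3 and 65.18 normalised counts in controls and 51.69, 108.7, 63.94 and 78.66 in TGFβ1FKO. The highest TGFβ1FKO library lay above 3 of the 4 controls. The fold was 0.785 (interval 0.545 to 1.13, limma adjusted p = 0.773), with coefficients of variation of 27.4% in controls and 32.5% in TGFβ1FKO against 10.3% and 11.5% from read counting. *Angpt2* also overlaps *Mcph1*, a gene on the opposite strand. Here too only whole gene spans were compared, so whether their exons share reads was not tested.

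*Angpt4* (chr2:151911210-151945337, plus strand) was the most abundant angiopoietin. It had 574.7, 686.4, 759.6 and 441.5 normalised counts in controls and 651.8, 437.0, 651.0 and 547.3 in TGFβ1FKO. Controls 2 and 3 lay above every TGFβ1FKO library, while control 4 lay next to the lowest of them, and the fold was 0.936 (interval 0.735 to 1.19, limma adjusted p = 0.922). Libraries of 1 group differed far beyond counting error, by 22.5% against 4.04% in controls and by 17.9% against 4.13% in TGFβ1FKO.

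*Hgf* (chr5:16553495-16620152, plus strand), the mesenchymal ligand of Met, had 294.2, 269.9, 272.8 and 235.1 normalised counts in controls and 261.5, 192.6, 268.2 and 252.6 in TGFβ1FKO. TGFβ1FKO 2 was the lowest library, and the other three lay within the control range. The gene overlaps the models *Gm43489* and *Gm42975* on the same strand, and its reads may be shared with them. The fold was 0.905 (interval 0.759 to 1.08, log2 fold change −0.14, limma adjusted p = 0.811). Without TGFβ1FKO 2 the log2 fold change was −0.035.

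**Figure D2:**
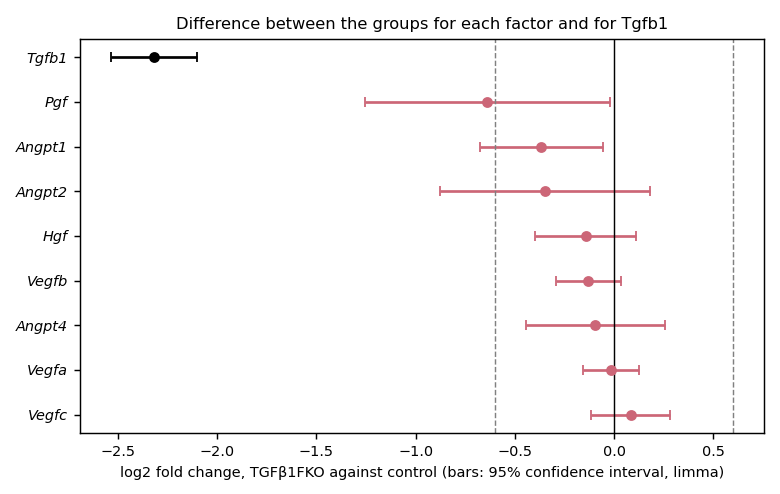
Log2 fold change of TGFβ1FKO against control (x axis) with its 95% confidence interval from limma for the 8 vessel growth factor genes and, in black, *Tgfb1*; dashed lines mark the threshold of 0.6 in either direction. The intervals of *Vegfa*, *Vegfb*, *Vegfc*, *Angpt4* and *Hgf* lie wholly between the dashed lines, those of *Pgf*, *Angpt1* and *Angpt2* reach past −0.6, and that of *Tgfb1* lies far to the left of all of them.

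The intervals of 5 members lay wholly within the fold change used for calling, and those of the other three reached past it. For *Vegfa* the log2 interval ran from −0.16 to 0.13, for *Vegfb* from −0.29 to 0.032, for *Vegfc* from −0.12 to 0.28, for *Angpt4* from −0.45 to 0.25 and for *Hgf* from −0.40 to 0.11. For *Pgf* it ran from −1.26 to −0.021, for *Angpt1* from −0.68 to −0.056 and for *Angpt2* from −0.88 to 0.18. *Pgf*, *Angpt2* and *Angpt4*, the members with the widest intervals, are those whose libraries varied most within the groups. TGFβ1FKO 2 and TGFβ1FKO 3 were each the lowest library for 3 members, and control 3 was the highest for 4.

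Levels of different genes were compared as normalised counts per kilobase of exons. *Vegfb* was the highest member at 718 ± 22.6 per kilobase in controls and 658.6 ± 75.3 in TGFβ1FKO (SD, n = 4 each), above 91.0% of all genes. *Vegfa* followed at 506.7 ± 44.1 and 500.3 ± 23.2, *Angpt4* at 263.6 ± 59.4 and 244.9 ± 43.8, and *Vegfc* at 137.9 ± 8.60 and 146.5 ± 15.6. The order from *Vegfb* over *Vegfa*, *Angpt4* and *Vegfc* to *Hgf* held in each library, and neighbouring ranges did not overlap in either group.

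Among the lower members the order was less clear. *Hgf* had 37.3 ± 3.41 per kilobase in controls and 33.9 ± 4.83 in TGFβ1FKO, *Angpt2* 26.0 ± 7.13 and 20.5 ± 6.67, *Angpt1* 25.3 ± 2.95 and 19.7 ± 2.82, and *Pgf* 21.01 ± 8.34 and 12.7 ± 2.68. *Hgf* lay above *Angpt1* and *Pgf* without overlap in both groups, and above *Angpt2* in all libraries but TGFβ1FKO 2. The ranges of *Angpt2*, *Angpt1* and *Pgf* overlapped with their neighbours' in both groups, and *Pgf* stood above only 24.0% of all genes. When the longest transcript replaced the union of exons as the length, the first 5 kept their order, *Hgf* then lay above the next member in every library, and *Angpt1* came before *Angpt2*. *Vegfd*, a related ligand that activates *Flt4* and is no member, was higher than each member, with 1238 ± 71.5 per kilobase in controls and 1262 ± 73.0 in TGFβ1FKO.

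**Figure D3:**
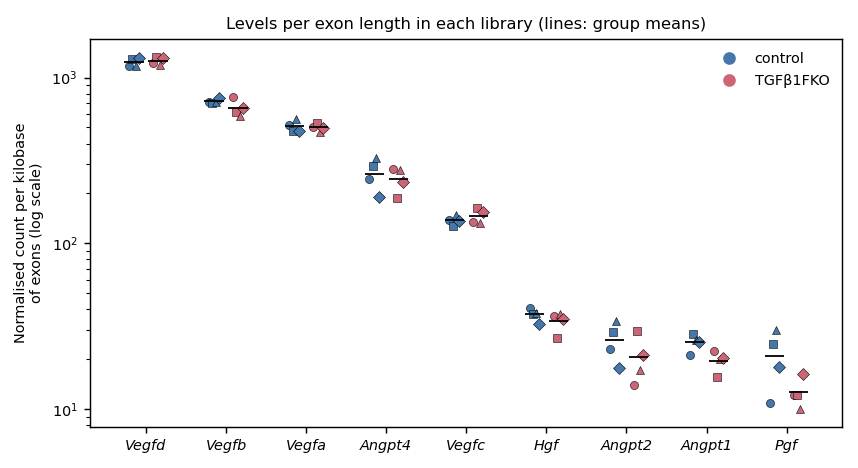
Normalised counts per kilobase of exons (y axis, log scale) of the 8 vessel growth factor genes and the related ligand *Vegfd* in each control (blue) and TGFβ1FKO (red) library, with lines at the group means. Levels fall from over 1000 for *Vegfd* through *Vegfb*, *Vegfa*, *Angpt4* and *Vegfc*, without overlap between them, to 4 genes below 50. Within each group, *Angpt2*, *Angpt1* and *Pgf* overlap with each other and *Hgf* with *Angpt2* only. Across the groups, *Hgf* in TGFβ1FKO 2 (26.81) also lies below *Angpt1* in control 2 (28.37) and *Pgf* in control 3 (30.18).

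The makeup of each family was compared as shares of the summed level per kilobase. Of the 4 VEGF members, *Vegfb* made up 51.9% ± 2.39 in controls and 49.9% ± 3.07 in TGFβ1FKO, *Vegfa* 36.6% ± 2.03 and 38.0% ± 1.95, *Vegfc* 9.96% ± 0.247 and 11.1% ± 1.22, and *Pgf* 1.51% ± 0.577 and 0.961% ± 0.185 (SD, n = 4 each). Each share differed between the groups by less than the larger of its SDs. With *Vegfd* counted in, it alone made up 47.2% ± 2.17 in controls and 48.9% ± 1.74 in TGFβ1FKO.

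Among the angiopoietins, *Angpt4* made up 83.5% ± 1.47 of the summed level in controls and 85.5% ± 3.68 in TGFβ1FKO. On average *Angpt1* and *Angpt2* shared the rest about evenly, with 8.29% ± 1.85 and 8.18% ± 0.520 in controls and 6.91% ± 0.448 and 7.58% ± 3.67 in TGFβ1FKO. Single TGFβ1FKO libraries were less even, with an *Angpt2* share from 4.44% in TGFβ1FKO 1 to 12.68% in TGFβ1FKO 2. The ratio of *Angpt2* to *Angpt1* in normalised counts, often used to describe the balance at Tie2, was 0.767, 0.734, 0.919 and 0.493 in controls and 0.444, 1.33, 0.611 and 0.740 in TGFβ1FKO. The TGFβ1FKO libraries held both the lowest and the highest ratio, so the groups could not be separated by it. Its means were 0.728 ± 0.176 in controls and 0.781 ± 0.385 in TGFβ1FKO (SD, n = 4 each). Per kilobase of exons they were 1.03 ± 0.249 and 1.10 ± 0.543. A ratio of RNA does not give the balance of the proteins.

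Fibroblasts can also express receptors for these ligands, and the RNA could hold that of other cells. Of 8 receptor genes 0 were called by limma, edgeR or DESeq2 (limma called 0.0860% of all genes). Also 0 had an unadjusted limma p under 0.05, against 3.87% of all genes lower and 3.59% higher. *Nrp2*, a co-receptor of VEGF-C and semaphorins, was the most abundant receptor at 2968 ± 346 normalised counts in controls and 3137 ± 217 in TGFβ1FKO (SD, n = 4 each, limma adjusted p = 0.839). *Kdr* had 148 and 123, *Flt1* 194 and 168, *Tek* 272 and 226, and *Met* 181 and 191.2 in control and TGFβ1FKO means.

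Related ligands were listed by 11 names, of which 8 were in the table, *Figf* being an older name of *Vegfd*. None was called by limma, edgeR or DESeq2. At an unadjusted limma p under 0.05, 1 was lower and 1 higher, against 3.87% and 3.59% of all genes. *Angptl1*, an angiopoietin-like protein, had 51.62, 113.7, 92.03 and 69.13 normalised counts in controls and 53.72, 30.03, 53.14 and 56.50 in TGFβ1FKO (log2 fold change −0.72, SE 0.263, limma adjusted p = 0.597). *Angptl4*, an inhibitor of lipoprotein lipase that also acts on vessels, had 103.2, 161.5, 161.9 and 213.3 in controls and 205.8, 216.4, 267.4 and 223.8 in TGFβ1FKO (log2 fold change 0.55, SE 0.181, limma adjusted p = 0.536). Both genes overlapped between the groups through a single control library. *Vegfd* had a log2 fold change of 0.027.

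Proteins that cut, hold or release the factors and proteins that oppose them were listed next. Of all genes, limma called 0.0860%, and at an unadjusted p under 0.05 it placed 3.87% lower and 3.59% higher. Of the processing genes, 17 of 22 were in the table, 0 were called by limma, edgeR or DESeq2, and only *Mmp2*, a gelatinase, had an unadjusted limma p under 0.05 (30610 ± 3580 against 26800 ± 1611 normalised counts, log2 fold change −0.19, adjusted p = 0.657). Of the inhibitors, 10 of 11 were in the table and 0 were called by the same tools, with 1 lower and 1 higher at the unadjusted limma p. *Sema3f*, a neuropilin ligand that repels endothelial cells, had 469.7, 488.7, 504.5 and 632.1 normalised counts in controls and 583.8, 1187, 654.3 and 919.6 in TGFβ1FKO (log2 fold change 0.63, SE 0.183, limma adjusted p = 0.464). Its groups overlapped through control 4 and TGFβ1FKO 1. *Col18a1*, whose product releases endostatin, had 5300 ± 708 and 4446 ± 590 (log2 fold change −0.25, limma adjusted p = 0.641), and *Thbs1*, the most abundant inhibitor, 197700 ± 16830 and 230100 ± 31430 (limma adjusted p = 0.708).

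Genes of the hypoxia pathway, which induces *Vegfa*, were listed as well. Of 8 regulators and of 15 targets in the table (16 listed), 0 were called by limma, edgeR or DESeq2. As limma called 0.0860% of all genes, lists this short are too small to differ from that share. At an unadjusted limma p under 0.05 there were 0 genes in each list, against 3.87% of all genes lower and 3.59% higher. The median log2 fold change was −0.0042 for the regulators and −0.0016 for the targets, against 0.0031 over all genes. *Hif1a*, the oxygen-regulated subunit, had 7471 ± 547 and 6891 ± 722 normalised counts (SD, n = 4 each), and *Aldoa*, a glycolytic target, 10910 ± 915 and 11220 ± 388. *Vegfa* itself stood close to these medians.

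**Figure D4:**
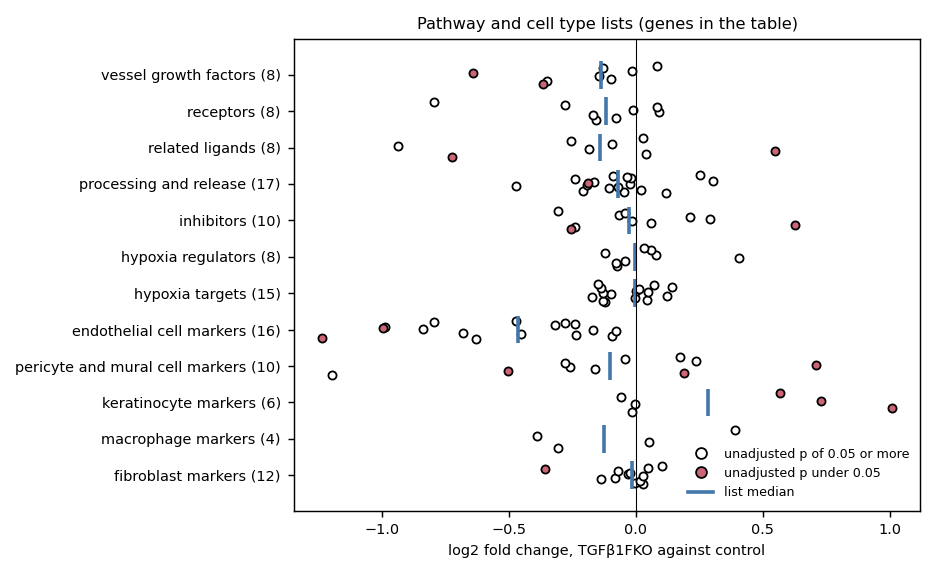
Log2 fold change of TGFβ1FKO against control (x axis) for every gene in the table of 12 lists (rows, with the number of genes plotted), filled where the unadjusted limma p was under 0.05; blue ticks give list medians. Most medians lie close to 0, the endothelial marker median lies at −0.46 with all 16 genes to the left of 0, and the keratinocyte marker median lies at 0.28.

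Other cell types also make some of the members, so their markers were set beside the members' values. All 16 endothelial markers in the table (of 17 listed) had a log2 fold change below 0 (49.1% of all genes did), with a median of −0.46. Of these markers 0 were called by limma, edgeR or DESeq2. At an unadjusted limma p under 0.05, 2 were lower (*Pecam1* and *Cldn5*), against 3.87% of all genes. Their summed level was 1021, 1218, 1193 and 853.3 normalised counts in controls and 829.1, 866.8, 852.8 and 829.8 in TGFβ1FKO, so that 3 controls lay above every TGFβ1FKO library and control 4 among them. *Tek*, *Kdr*, *Cdh5* and *Ptprb* had the highest control means (272.1, 147.6, 146.1 and 111.2) and weighed most in this sum. The scarcer *Pecam1* and *Plvap* ran from 16.61 to 44.53 and from 3.04 to 29.0 within TGFβ1FKO. 3 of the markers had a mean under 10, and *Erg* was at 0 in TGFβ1FKO 1.

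*Angpt2*, an endothelial product, was compared with single endothelial markers, which were singled out after the values had been seen. *Pecam1* had 43.87, 61.62, 70.97 and 26.67 normalised counts in controls and 17.23, 44.53, 16.61 and 23.27 in TGFβ1FKO. The 3 libraries with the highest *Pecam1*, controls 2 and 3 and TGFβ1FKO 2, were also the 3 with the highest *Angpt2* (108.4, 125.3 and 108.7). *Cdh5*, another endothelial gene, was high in those libraries (175.3, 208.5 and 117.0) but also in TGFβ1FKO 3 (157.8), where *Angpt2* was among the lowest. *Emcn*, *Erg*, *Tie1* and *Egfl7* were also highest in controls 2 and 3 and TGFβ1FKO 2, *Erg* with at most 15 reads per library and *Tie1* with at most 27. The remaining endothelial markers had a different top 3, and some did not follow *Angpt2*. *Tek* and *Ptprb* were lowest of all libraries in TGFβ1FKO 2 (154.3 and 57.99), and *Kdr* was highest in control 1 (250.3), where *Angpt2* was 85.17. The part of endothelial RNA in the values of *Angpt2*, *Angpt1* and *Pgf* was not tested.

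Of the pericyte and mural cell markers, 10 of 12 were in the table. At an unadjusted limma p under 0.05, 1 was lower, against 3.87% of all genes, and 2 were higher, against 3.59%. Their sum was 53390 to 58250 normalised counts in controls and 54940 to 62670 in TGFβ1FKO, of which 95.5% to 97.0% per library were *Acta2* and *Pdgfrb*, genes that cultured fibroblasts also express. Without this pair, left out after the values had been seen, the sum was 1737 to 2467 in controls and 1844 to 2525 in TGFβ1FKO. Of the 10 genes, 6 had a log2 fold change below 0, with a median of −0.10. limma called 0 of them, while edgeR and DESeq2 tested against no change each called *Myh11*, a smooth muscle myosin (log2 fold change 0.71, limma adjusted p = 0.0649, higher without overlap). *Acta2*, an actin of contractile cells, had a log2 fold change of 0.19 (limma adjusted p = 0.654), and *Cspg4*, a pericyte proteoglycan, one of −0.50 (limma adjusted p = 0.599). *Angpt1*, which mural cells make, had a log2 fold change of −0.37 in the same libraries.

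Keratinocyte markers were scarce, with 6 of 12 in the table and without *Krt5* and *Krt14*, and their sum was 232.7 to 286.1 normalised counts in controls and 313.2 to 363.5 in TGFβ1FKO. 3 of them (*Dsp*, *Perp* and *Trp63*) were higher at an unadjusted limma p under 0.05, against 3.59% of all genes, with 0 called by limma, edgeR or DESeq2. *Dsp* and *Perp* did not overlap between the groups, as was so for 3.79% of all genes. The others, *Krt10*, *Cdh1* and *Sfn*, had log2 fold changes of −0.0007, −0.013 and −0.057. Of the macrophage markers 4 of 12 were in the table, without *Ptprc* and *Adgre1*, and their sum was 459.0 to 558.0 in controls and 303.9 to 519.9 in TGFβ1FKO, with 0 called by these tools and 0 at an unadjusted limma p under 0.05. The part of these cells in the members' values was not tested.

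The genes whose pattern over the 8 libraries was most like that of *Angpt1* were *Mbp*, *Fzd4* and *Dtx4*, among 11560 genes with a mean of at least 50. Likeness was the mean absolute difference of log2 values, each centred on the gene's control mean, and it was 0.0704 for *Mbp*, 0.0798 for *Fzd4* and 0.0818 for *Dtx4*. *Mbp* had 175.5, 252.9, 225.1 and 216.3 normalised counts in controls and 186.5, 138.8, 155.3 and 151.8 in TGFβ1FKO. As in *Angpt1*, control 1 was the lowest control, control 2 the highest and TGFβ1FKO 2 the lowest library of all. *Mbp* was chosen for its likeness in these libraries, so the shared order is no separate result. None of the 3 genes was called by limma (adjusted p of 0.459, 0.674 and 0.675).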

How the data were processed

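Poly(A) RNA of primary dermal fibroblasts was sequenced in 4 control and 4 TGFβ1FKO libraries, grouped by the genotype in their labels. Per the labels' processing notes the authors used CASAVA 1.8, HISAT2 2.0.5, featureCounts 1.5.0-p3, R 4.3.2 and DESeq2 1.42.0 on GRCm38. The deposited values are a signal that is never negative: counts divided by DESeq2 size factors, with 0.5 added, for 15111 genes, each with at least 41 reads in all. The deposited columns of the authors' own comparison (a fold change with its error, a statistic and p-values) were not used.

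The 0.5 was subtracted, after which 100% of the values of each library were whole reads (tolerance 0.001). log2(value + 1) was compared with limma 3.58.1 (mean-variance trend, R 4.3.3) over all genes with Benjamini-Hochberg adjustment; this scale understates changes of low genes. Since the values are not raw counts, edgeR 4.0.16 and DESeq2 1.42.0 on recovered reads were alternatives. Other alternatives covered scaling, pseudocount, a mean filter, the adjusted p threshold, a block for the replicate number and fits without 1 library. Single values were compared with two-sided exact permutation tests. A count of 3 reads was the floor, which covers counting error only, as PCR reads are not independent molecules. The scripts were tested on simulated data.

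The members and the 12 gene lists were chosen with earlier results of these data known. Each member is named; of every pathway list, called genes, up to 4 with the smallest unadjusted p under 0.05 and the most abundant gene per exon length; and the 3 genes most like the member with the smallest p. Receptors other than *Nrp2* and single marker genes beyond this rule were chosen after their values were seen. GENCODE M21 (GRCm38) gave positions for 15098 genes. Of the 2 gene IDs named *Aldoa* the more abundant was kept.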

Additional observations from a re-analysis of the deposited data

Results flagged for a closer look

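The summed keratinocyte markers in TGFβ1FKO 2 stood at 363.5 normalised counts, far from the 313.2 to 315.8 of the other TGFβ1FKO libraries (gap of 0.949 of the group's range). In 28 groups of 4 libraries examined in this way (the 8 vessel growth factor genes, *Tgfb1* and the summed markers, in each genotype), chance gives about 1.4 such libraries. None of the 8 vessel growth factor genes had a library that stood apart in this way.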

How the results depend on the processing

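No vessel growth factor gene was called under any alternative. *Vegfb*, *Vegfc*, *Pgf*, *Angpt1*, *Angpt2* and *Hgf* kept their direction throughout, and the test, scaling, pseudocount, filter and block kept that of *Vegfa* and *Angpt4* too. In the fits without 1 library, *Vegfa* had a log2 fold change that ran from −0.047 to 0.039 (above 0 without control 3 or TGFβ1FKO 3) and *Angpt4* one from −0.25 to 0.027 (above 0 without control 3 or TGFβ1FKO 2). The value of *Vegfb* ran from −0.20 to −0.080, of *Vegfc* from 0.027 to 0.13, of *Angpt1* from −0.45 to −0.26, of *Pgf* from −0.91 to −0.44, of *Angpt2* from −0.54 to −0.19 and of *Hgf* from −0.20 to −0.035. The smallest adjusted p of any member was 0.317 (*Pgf* without control 1). A mean filter of 50 removed *Pgf*. Over all genes, 13 were called, against 20 by edgeR, 56 by DESeq2 tested against no change, 15 by DESeq2 tested against 0.6, 25 at an adjusted p under 0.1, 4 with the mean filter and 5 to 32 with a library left out (5 without control 3, TGFβ1FKO 2 or TGFβ1FKO 4, 6 without control 2, 7 without control 1, 32 without control 4); the cause was not tested. TMM scaling shifted the median of all genes by −0.0052.

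With the replicate number as a block, 31 genes were called and 0 members (*Angpt1* and *Pgf* both at a limma adjusted p of 0.60). Deviations of same-numbered libraries correlated by 0.156, −0.134, 0.0523 and 0.159 across genes. Not every library correlated best with its own number. These weak correlations cannot tell whether same-numbered samples share more than the number. *Pgf*, *Angpt1* and *Angpt2* have 34 to 139 reads per library; the spread of *Pgf* and *Angpt2* between control libraries exceeded counting error.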
